A study of Mus musculus with 57 samples.

Results

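The genes described are those of the mouse major histocompatibility complex class II (MHC class II) antigen presentation route that the count tables list under 7 symbols: H2-Aa, H2-Ab1, H2-Eb1, H2-DMa, H2-DMb1, Cd74 and Ciita. They were taken by symbol and not by any measured value. All 7 were found in both count tables and all 7 passed the filter on low counts in both, which left 31709 of 50565 genes in the first table and 15857 of 53278 in the second.

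MHC class II molecules are heterodimers that display peptides from ingested material to CD4 T cells. H2-Aa and H2-Ab1 encode the alpha and beta chain of the I-A molecule, and H2-Eb1 encodes the beta chain of I-E. Cd74, the invariant chain, escorts the new heterodimer to the endosome and keeps its groove closed, and it also serves as a receptor for the cytokine MIF. H2-DMa and H2-DMb1 encode the chains of H2-DM, the endosomal editor that exchanges the invariant chain remnant for peptide. Ciita is the transactivator without which class II genes are hardly transcribed. It binds no DNA itself and docks on factors that sit on the conserved W, X and Y boxes of class II promoters. Resting microglia express little class II, while macrophages of the brain's borders, dendritic cells and B cells express much of it.

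RNA was sequenced from CD11b-positive brain cells of wild-type (WT) mice and of littermates lacking P2RY12 (KO), a purinergic receptor characteristic of microglia. CD11b is carried by microglia and also by other myeloid cells, so the sample is a mixture. The first experiment compared adult males and females without a treatment label (4 WT and 5 KO males, 4 WT and 5 KO females). In the second, called the LPS experiment here, animals of both genotypes were labelled LPS, a bacterial lipopolysaccharide injected into the peritoneum at 1 mg/kg, or ns, a term the labels leave undefined. The time after injection, the age beyond adult, the kind of P2ry12 allele, and the sex of the animals in the LPS experiment are not given in the sources used here. The library names of the LPS experiment carry a group number from 1 to 8, followed by a library number. Group numbers 1 to 4 cover all 4 groups, and so do 5 to 8. These were taken here as 2 library sets, although the labels name no set or batch. Its 32 samples were 8 KO ns, 8 KO LPS, 6 WT ns, 6 WT LPS and 4 WT samples of library number 2, which are shown apart. Nothing in the labels of the LPS experiment says that its samples are separate animals, so its p-values measure the spread between these samples.

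Totals ran from 58.5 to 318.5 M counts (M for mega) in the sex experiment and from 15.9 to 168.4 M in the LPS experiment. P2ry12 served as the check of genotype, and Saa3, an acute-phase gene induced by LPS, as the check of treatment. P2ry12 lay at 3516 to 5406 counts per M counts (CPM) in WT ns and at 585 to 1243 CPM in KO ns, and Saa3 at 0.860 to 64.3 CPM in all WT ns and KO ns samples against 1024 to 9720 CPM in WT LPS and KO LPS. Levels of P2ry12 in WT LPS, KO LPS, library number 2 and the sex experiment are not reported here. The 4 WT samples of library number 2 went against their treatment labels. The pair labelled ns (WT ns 1 and WT ns 5) had 1781 and 2491 CPM of Saa3, and the pair labelled LPS (WT LPS 1 and WT LPS 6) had 1.59 and 3.21 CPM. Each result of the LPS experiment is therefore given without this foursome in the labelled groups, and the values with them follow. Of 9 microglia markers, all were detected in every group of the LPS experiment, with a summed level of 16564 to 51420 CPM.

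Promoter sequence of the class II genes was taken from RefSeq (build GRCm38.p6), where 4 of the 7 members and 4 of 5 other class II genes had a window of 300 bases around the start. The stretches upstream of the start are shown for 3 members and for the genes of H2-O, so that the boxes on which Ciita's partners sit can be read beside the values. Capitals mark the Y core ATTGG, or CCAAT where it lies on the opposite strand, and the X core CCNNGNNAC, N being any base, where an X core precedes a Y core at the usual distance.
H2-Aa: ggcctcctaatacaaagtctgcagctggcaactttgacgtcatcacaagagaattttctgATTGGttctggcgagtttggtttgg
H2-Eb1: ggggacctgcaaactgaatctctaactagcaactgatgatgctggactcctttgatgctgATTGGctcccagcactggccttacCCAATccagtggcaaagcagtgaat
H2-DMb1: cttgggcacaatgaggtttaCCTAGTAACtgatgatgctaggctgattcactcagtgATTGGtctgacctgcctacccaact
H2-Oa: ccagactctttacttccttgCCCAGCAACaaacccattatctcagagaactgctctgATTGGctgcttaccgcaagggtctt
H2-Ob: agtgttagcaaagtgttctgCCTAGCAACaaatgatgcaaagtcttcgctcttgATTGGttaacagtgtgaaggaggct

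The H2-Aa stretch is chr17:34287847-34287931 on the minus strand, and the others lie on the plus strand at chr17:34305748-34305856 (H2-Eb1), chr17:34153073-34153154 (H2-DMb1), chr17:34092279-34092360 (H2-Oa) and chr17:34238794-34238872 (H2-Ob). In H2-DMb1 the X core began 37 bases before the Y core, in H2-Oa also 37, and in H2-Ob 34. An X core followed by a Y core at 28 to 42 bases on the same strand stood in 0.767% of 32851 promoter windows, while the X core alone stood in 47.4% and the Y core alone in 37.4%, searched on both strands. The windows of H2-Aa and H2-Eb1 held a Y core and no such pair of cores. Each window of H2-DMa held an X core or a Y core but not both. The search took exact matches only. Before the Y core, the printed stretches of H2-Aa and H2-Eb1 hold bases that miss the X pattern only at its first position. The lack of a pair there thus does not show that these genes lack an X box. H2-DMb1, which has the pair, was the member not called under LPS. Of the other genes with the pair, H2-Ob fell in KO and in WT, while H2-Oa fell in KO and was not called in WT. With a window for only 4 of the 7 members, the relation of the pair to LPS was not tested.

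In the LPS experiment the class II genes were lower under LPS in both genotypes. In KO animals 6 of the 7 members were called lower and none higher, where 28.3% of all 15857 genes tested were called (15.2% lower and 13.1% higher). In WT samples the same count, 6 of 7 lower, stood against 30.3% of genes called (15.5% lower and 14.8% higher). The member left uncalled was H2-DMb1 in both. The median log2 fold change over the 7 members was -2.64 in KO and -2.92 in WT, beside -0.02 and -0.01 over all genes tested. A gene is called where edgeR's quasi-likelihood test gave an adjusted p under 0.05. In bulk RNA, fewer cells of a type and less RNA per cell cannot be told apart.

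H2-Aa, the I-A alpha chain gene (chr17:34501718-34506797, minus strand, GRCm39), had 109 CPM in the lowest, 226 in the median and 668 in the highest of the 8 KO ns samples. In the 8 KO LPS samples it had 9.81, 18.9 and 26 CPM. In WT ns the lowest, median and highest were 159, 251 and 322 CPM, and in WT LPS 11.3, 22.5 and 123 CPM. The groups did not overlap in either genotype, and the highest values of KO ns and WT LPS came from single samples (KO ns 6 and WT LPS 7) described below. H2-Aa fell by 3.77 on the log2 scale in KO (SE 0.34, adjusted p = 1.34e-09), a 13.7-fold difference, and fell by 2.92 in WT (SE 0.38, adjusted p = 1.02e-06).

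H2-Ab1, the partner beta chain gene of I-A (chr17:34482201-34488392, plus strand), had 81.9, 136 and 219 CPM as lowest, median and highest in KO ns and 11.6, 15.6 and 26.3 CPM in KO LPS. In WT ns the corresponding levels were 124, 183 and 224 CPM, and in WT LPS 11.2, 21.3 and 42 CPM. No LPS sample reached the lowest ns sample of its genotype. H2-Ab1 fell by 3.10 in KO (SE 0.23, adjusted p = 3.27e-11) and fell by 2.99 in WT (SE 0.27, adjusted p = 1.87e-09) on the log2 scale.

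H2-Eb1, the I-E beta chain gene (chr17:34524841-34535648, plus strand), showed the largest log2 fold change among the members in KO. Its lowest, median and highest levels were 86.7, 167 and 227 CPM in KO ns and 6.66, 11.5 and 16.2 CPM in KO LPS. In WT ns they were 121, 197 and 243 CPM, and in WT LPS 7.31, 16.3 and 36.4 CPM. These groups did not overlap either, and H2-Eb1 fell by 3.89 in KO (SE 0.23, adjusted p = 1.01e-12) and fell by 3.43 in WT (SE 0.27, adjusted p = 1.93e-10). I-E also needs an alpha chain: its gene H2-Ea was in the table at 0 CPM per kilobase in all 4 groups.

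Cd74, the invariant chain gene (chr18:60936921-60945724), fell less. Its lowest, median and highest levels were 126, 305 and 569 CPM in KO ns and 49.5, 186 and 274 CPM in KO LPS. In WT ns they were 356, 538 and 593 CPM, and in WT LPS 124, 185 and 271 CPM. The WT groups were apart, while the KO groups overlapped, with 4 of 8 KO ns samples (KO ns 2, 4, 5 and 6) at or below the highest KO LPS sample. Cd74 fell by 0.90 in KO (SE 0.28, adjusted p = 0.0167) and fell by 1.42 in WT (SE 0.33, adjusted p = 0.00159). The KO call did not hold in 2 leave-one-out fits: without KO ns 1 the log2 fold change was -0.76 (adjusted p = 0.0503), and without KO ns 8 it was also -0.76 (adjusted p = 0.0504). With only the KO groups fitted it was -0.88 (adjusted p = 0.0584).

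The H2-DM chains differed from each other. H2-DMa (chr17:34338667-34358075, plus strand) had 76.6, 115 and 126 CPM as lowest, median and highest in KO ns and 47.4, 74.7 and 86.9 CPM in KO LPS, which overlapped only through KO ns 6. In WT ns it had 105, 118 and 147 CPM and in WT LPS 35.1, 46.9 and 83.3 CPM, without overlap. H2-DMa fell by 0.62 in KO (SE 0.15, adjusted p = 0.00239) and fell by 1.13 in WT (SE 0.18, adjusted p = 1.41e-05). Its span shares 2915 bases with Brd2 on the opposite strand, and as the strand setting of the counting is not given in the sources used here, reads of that stretch may belong to either gene.

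H2-DMb1 (chr17:34372165-34379203, plus strand) overlapped between all 4 groups, with medians of 67.6 CPM in KO ns, 69.0 in KO LPS, 70.1 in WT ns and 66.4 in WT LPS. The log2 fold change was -0.04 in KO (95% interval -0.34 to 0.26, adjusted p = 0.881) and -0.10 in WT (95% interval -0.45 to 0.24, adjusted p = 0.694). These intervals do not include the log2 fold change of H2-DMa in either genotype, although the difference between the chains was not tested. H2-DMb1 has a close paralog, H2-DMb2, so its count may hold or lack reads of that gene. H2-DMb2 itself fell by 1.19 in WT (SE 0.30, adjusted p = 0.0032) and had a log2 fold change of -0.41 in KO (adjusted p = 0.259).

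Ciita, the transactivator gene (chr16:10297877-10348928, plus strand), was the least abundant member. Its lowest, median and highest levels were 0.152, 7.22 and 9.61 CPM in KO ns and 0.0427, 0.918 and 1.72 CPM in KO LPS. In WT ns they were 8.35, 11.8 and 16.9 CPM and in WT LPS 0, 0.628 and 2.70 CPM. WT groups did not overlap, whereas KO ns 5 (1.48 CPM) and KO ns 6 lay among the KO LPS samples. Ciita fell by 2.64 in KO (SE 0.61, adjusted p = 0.00144) and fell by 3.66 in WT (SE 0.73, adjusted p = 0.000343). Without WT LPS 5, the WT LPS sample with the highest level, the WT value was -4.45. The WT LPS sample at 0 was WT LPS 7, where a count of 0 allows up to 0.211 CPM (3 counts, counting error only). Ciita overlaps Dexi and an uncharacterised locus, both on the opposite strand.

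**Figure D1:**
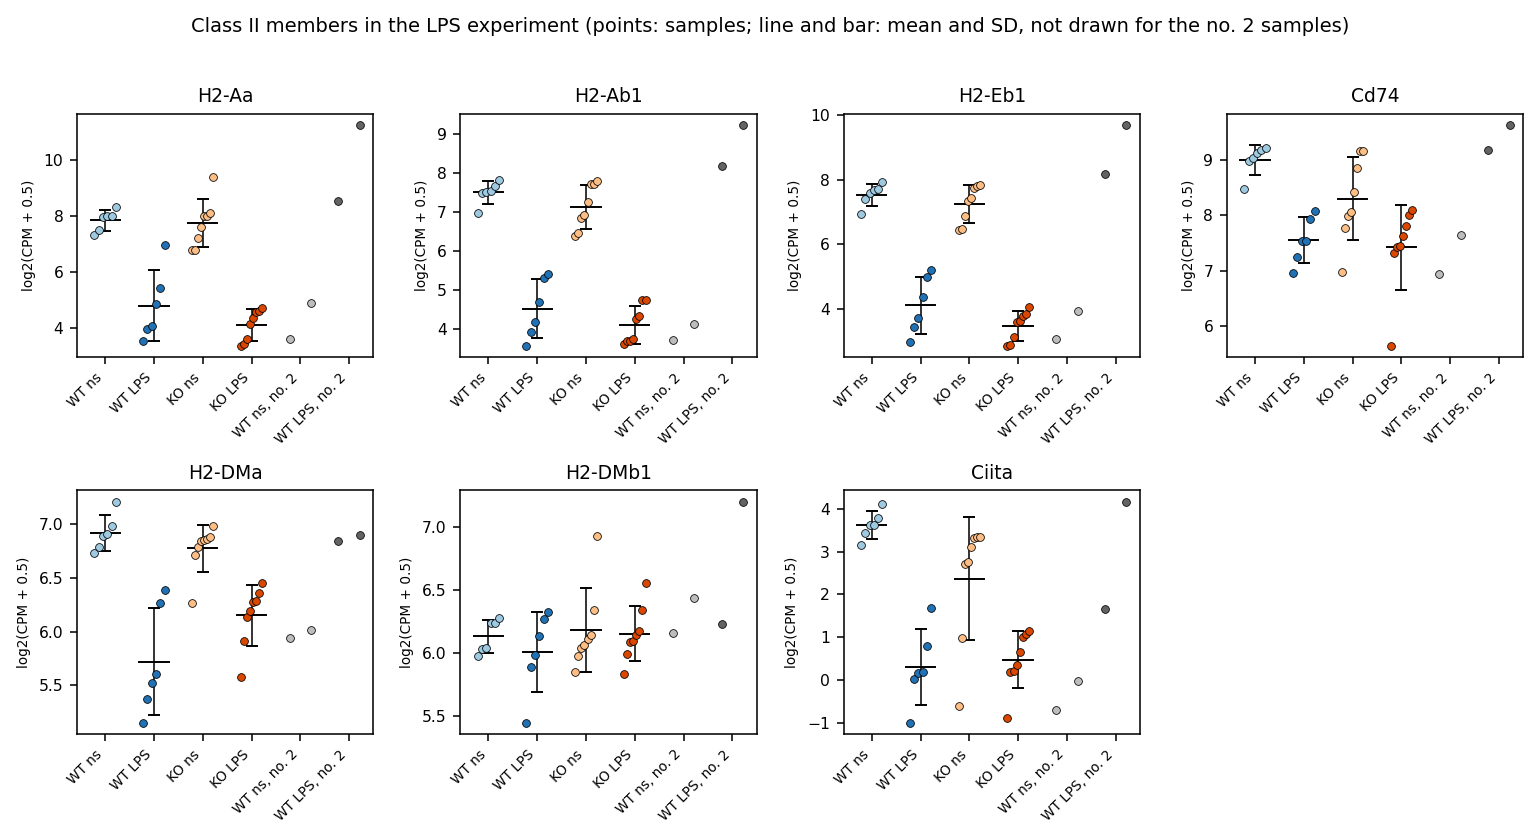
Levels of the 7 members in each sample of the LPS experiment, as log2(CPM + 0.5) on the vertical axis, by genotype and treatment, with the mean and SD of the 4 main groups as line and bar and the WT samples of library number 2 in grey. H2-Aa, H2-Ab1 and H2-Eb1 are lower in every LPS sample than in any ns sample of the same genotype among the main groups, H2-DMb1 overlaps between all 4 main groups, and the grey samples labelled ns sit at the levels of the LPS groups for H2-Aa, H2-Ab1 and H2-Eb1.

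Between genes, levels were compared per kilobase of the longest coding transcript. In WT ns the order was Cd74 at 367 ± 61.2 CPM per kilobase (SD, n = 6), H2-Aa at 209 ± 52.4, H2-Ab1 at 151 ± 27.4, H2-Eb1 at 113 ± 24.9, H2-DMa at 60.2 ± 7.39, H2-DMb1 at 49.9 ± 4.51 and Ciita at 2.01 ± 0.484. Neighbours among H2-Aa, H2-Ab1 and H2-Eb1 lay within the sum of their SDs of each other, and so did the H2-DM chains. In KO LPS the order was Cd74 at 133 ± 49.3 (n = 8), H2-DMb1 at 50.9 ± 8.05, H2-DMa at 35.7 ± 6.33, H2-Aa at 15.9 ± 5.83, H2-Ab1 at 14.4 ± 5.09, H2-Eb1 at 6.60 ± 2.08 and Ciita at 0.167 ± 0.0966. KO ns had the order of WT ns, with H2-Eb1 at 96.8 and H2-DMa at 54.7 CPM per kilobase. In WT LPS (n = 6) H2-DMb1 stood at 46.5 ± 9.55, H2-Aa at 35.1 ± 37.8, H2-DMa at 27.4 ± 9.95, H2-Ab1 at 20.6 ± 10.7 and H2-Eb1 at 11.7 ± 7.07 CPM per kilobase. Both genes of H2-DM thus stood below those of I-A and I-E per length in the ns groups and above them in KO LPS. In WT LPS the mean of H2-Aa lay between the H2-DM chains. That mean holds WT LPS 7, with 123 CPM of H2-Aa against a group median of 22.5 CPM, so this order rests on a single sample.

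The 4 WT samples of library number 2 had levels of H2-Aa nearer to those of the opposite label, as they did for Saa3. WT ns 1 and WT ns 5 had 11.7 and 29.2 CPM of H2-Aa and 0.486 and 0.109 CPM of Ciita. WT LPS 1 and WT LPS 6 had 371 and 2424 CPM of H2-Aa, 790 and 575 CPM of Cd74, and 17.5 and 2.66 CPM of Ciita. With these samples in their labelled groups, 0 of the 7 members were called for LPS in WT, where 0% of all genes were called (1 member at an unadjusted p under 0.05 by edgeR), and the H2-Aa value turned to 0.64 (adjusted p = 0.639). In KO 5 members were then called, against 22.3% of all genes, since Cd74 at -0.90 had an adjusted p of 0.0977.

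Library set bore on these results. In set 1 alone 6 members were called in each genotype, against 44.9% of all genes called in KO and 42.6% in WT. In set 2 alone, 3 were called in each, namely H2-Aa, H2-Ab1 and H2-Eb1, against 4.65% of all genes in KO and 3.62% in WT. Their log2 fold changes there were -3.76, -2.97 and -3.75 in KO and -2.12, -2.47 and -2.86 in WT. The uncalled members of set 2 kept similar sizes, with H2-DMa at -0.62 in KO and -1.11 in WT, Cd74 at -0.80 and -1.32, and Ciita at -2.29 and -3.57.

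Of the main groups, 3 samples of set 2 had low levels of long transcripts. The index used takes each gene's log2 level relative to its median over the samples, and is the median over 2143 genes with a transcript of at least 5000 bases minus that over 1270 genes with one under 1500 bases. It was -1.82 in KO ns 6, -2.12 in WT LPS 7 and -0.94 in KO LPS 5, and between -0.08 and 0.29 in the remaining samples of the main groups. Ciita, whose transcript has 6007 bases, had 0.152, 0 and 0.0427 CPM in those samples, the lowest of each group. H2-Aa, with a transcript of 1128 bases, had 668, 123 and 26 CPM in them, the highest of each group. In library number 2, outside these 3 samples, the index was -1.45 in WT LPS 6 and -0.41 in WT ns 5. It was -0.05 in WT ns 1 and 0.16 in WT LPS 1. Without the 3 samples, a choice made after the values were seen, 6 members were again called in each genotype, against 39.9% of all genes in KO and 37.3% in WT, with H2-Aa at -3.57 in KO and -3.43 in WT and Ciita at -2.66 and -3.45.

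**Figure D2:**
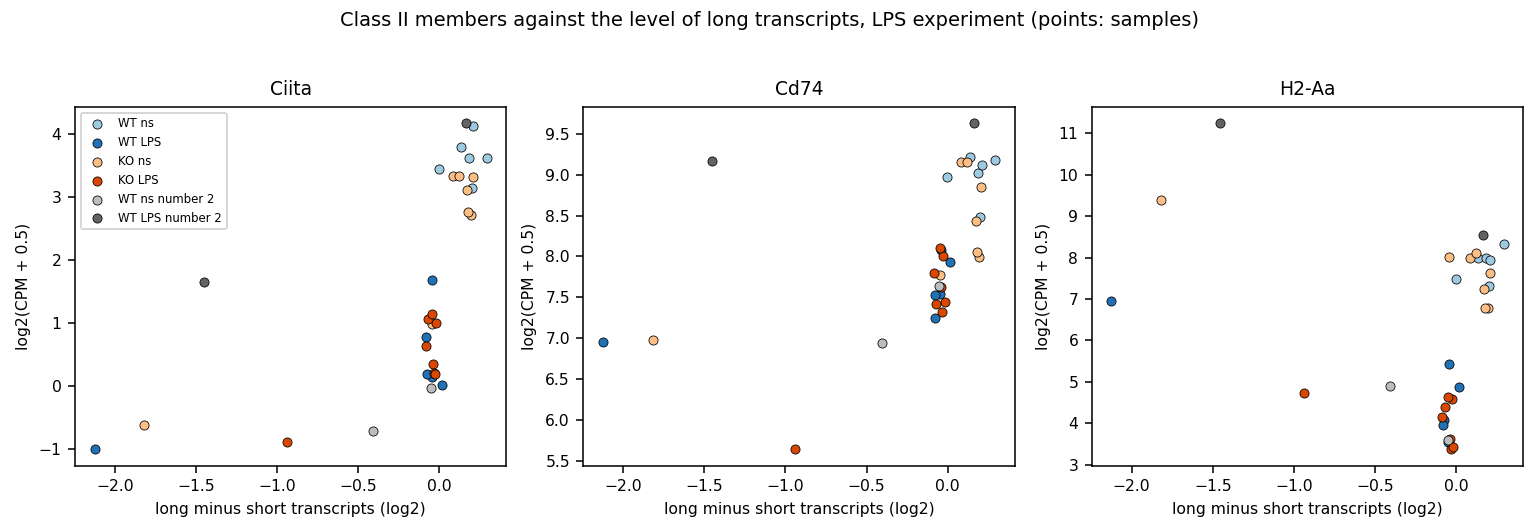
Ciita, Cd74 and H2-Aa in each sample of the LPS experiment, as log2(CPM + 0.5), against the level of long relative to short transcripts (log2, horizontal axis). Samples far to the left have low Ciita and Cd74 and high H2-Aa for their group, and the main groups otherwise lie between -0.08 and 0.29.

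Markers of other cell types that express class II moved with the LPS label. For these and the lists that follow, the share called over all genes tested was 28.3% in KO and 30.3% in WT. Of 9 dendritic cell markers, 5 fell and 1 rose in each genotype, and their summed level was 35.0 to 94.2 CPM in KO ns, 16.8 to 30.3 in KO LPS, 44.2 to 95.3 in WT ns and 13.8 to 35.8 in WT LPS. Cd209a, a lectin of conventional dendritic cells, fell by 7.48 in KO and by 5.26 in WT. B cells mostly lack CD11b, for which the cells were selected. Of 9 B cell markers 6 were tested, of which 4 fell in KO and 5 in WT. Their summed level was 361 to 547 CPM in KO ns, 125 to 226 in KO LPS, 436 to 507 in WT ns and 86.7 to 174 in WT LPS, most of it Ighm (447 ± 70.4 CPM in KO ns, n = 8).

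Of 10 markers of border-associated macrophages, 4 fell and 1 rose in KO (50% called), and 3 fell and 1 rose in WT (40% called). Their median log2 fold change was -0.44 in KO and -0.93 in WT. Their summed level was 783 to 2886 CPM (median 2162) in KO ns, 653 to 3705 (median 3236) in KO LPS, 2211 to 3073 (median 2436) in WT ns and 807 to 4233 (median 3793) in WT LPS, so that its median was higher in the LPS groups. Mrc1, the mannose receptor of these macrophages and one of the markers that fell, fell by 1.56 in KO (SE 0.19) and by 2.06 in WT (SE 0.23). Of 9 microglia markers, 6 fell in each genotype. No gene of these 4 lists was at 0 in every sample of a main group. The part of these cells in the class II result was not tested.

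Genes around the class II route did not move as 1 group. Of 5 other class II genes 3 were tested. H2-Ob, the beta chain gene of H2-O, which restrains H2-DM, fell by 2.04 in KO (SE 0.21) and by 2.29 in WT (SE 0.25). H2-Oa, its partner, fell by 1.19 in KO (SE 0.31) and had a log2 fold change of -0.58 in WT (adjusted p = 0.232).

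The 7 genes of the promoter-bound complex on which Ciita docks (Rfx5, Rfxap, Rfxank, Nfya, Nfyb, Nfyc and Creb1) gave 0 calls in KO and 0 in WT, with medians of -0.31 and -0.07. Rfx5, the regulatory factor X subunit, stood at 36.9 ± 12.1 CPM in KO ns and 33.9 ± 10.9 CPM in KO LPS. Interferon-gamma is the classical inducer of Ciita. In the list of its axis, 2 of 9 genes tested rose in each genotype and none fell. That is 22.2% called, below the 28.3% of all genes in KO and the 30.3% in WT. Irf1, an interferon-responsive factor, rose by 0.67 in KO and had a log2 fold change of 0.44 in WT (adjusted p = 0.0597). The kinase gene Jak2 rose by 0.30 in WT and had a log2 fold change of 0.24 in KO (adjusted p = 0.0619). Ifng itself, the ligand, lay at 0.395 ± 0.465 CPM in KO ns and 0.0828 ± 0.0996 CPM in KO LPS.

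Of 8 genes that prepare class II for peptide, 2 rose and 1 fell in KO, and 3 rose and 2 fell in WT. The share called was 37.5% in KO and 62.5% in WT, beside 28.3% and 30.3% of all genes. Ifi30, the lysosomal thiol reductase GILT, rose by 2.6 in KO (SE 0.19) and by 2.45 in WT (SE 0.22), from 144 ± 32.4 to 869 ± 213 CPM in KO (n = 8 each). Ctsl, a cathepsin that trims the invariant chain, rose by 1.41 in KO and 2.37 in WT. Ctsd, an aspartic cathepsin, fell by 1.19 in KO and 1.14 in WT. Mif, a ligand of the CD74 receptor, rose by 0.66 in KO (adjusted p = 0.0477) and 1.09 in WT, and its relative Ddt rose by 0.49 and 0.65. Cxcr4, a coreceptor of CD74 in MIF signalling, fell by 1.34 in KO and 1.62 in WT.

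Genotype was compared within each treatment. In ns samples 0 of the 7 members were called between KO and WT by edgeR, where 0.0883% of all genes were called. None had an unadjusted p under 0.05, and DESeq2 called 0. KO ns and WT ns samples overlapped for every member. The median log2 fold change over the 7 members was -0.27, beside -0.05 over all genes tested. Several members varied together between samples, so their values are not independent. The log2 fold change was -0.56 for Cd74 (95% interval -1.18 to 0.06, adjusted p = 0.574), -0.96 for Ciita (95% interval -2.19 to 0.28, adjusted p = 0.61) and between -0.33 and 0.07 for the others.

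Under LPS 0 members were called between KO and WT, where 0.0946% of all genes were, and DESeq2 called 0. At an unadjusted p under 0.05 there were 3 by edgeR. H2-Eb1 was at -0.72 (SE 0.23, unadjusted p = 0.00356, adjusted p = 0.459), H2-Aa at -0.90 (SE 0.33, unadjusted p = 0.0107, adjusted p = 0.589) and H2-DMa at 0.37 (SE 0.16, unadjusted p = 0.0305, adjusted p = 0.733). The WT LPS sample WT LPS 7, with 123 CPM of H2-Aa, bears on this: without it H2-Aa was at -0.36, and without the 3 samples low in long transcripts H2-Aa was at -0.40 and H2-Eb1 at -0.51. With the WT samples of library number 2 in their labelled groups, 2 members were called, H2-Aa at -4.08 (adjusted p = 0.0441) and H2-Eb1 at -3.71 (adjusted p = 0.0452), against 0.126% of all genes. In ns the same regrouping called 0 members and 0.114% of genes. By label, the WT LPS group includes WT LPS 6, which was low in long transcripts and had 2424 CPM of H2-Aa.

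Whether the LPS difference itself depended on genotype was tested as an interaction. It was called for 0 members and for 0% of all genes by edgeR, and DESeq2 called 0 members. One member, H2-DMa, had an unadjusted p under 0.05, at 0.51 (SE 0.23, unadjusted p = 0.0342, adjusted p = 0.754), its difference being smaller in KO than in WT. The interaction was -0.86 for H2-Aa (95% interval -1.82 to 0.11), 0.52 for Cd74 (95% interval -0.36 to 1.40) and 1.02 for Ciita (95% interval -0.81 to 2.85). Single WT LPS samples moved these values: the interaction of H2-Aa was -0.36 without WT LPS 7, and that of Ciita was 1.83 without WT LPS 5. Each of these 3 intervals reaches beyond 1 on the log2 scale in one direction. With the labelled grouping it was again called for 0 members and 0% of genes.

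**Figure D3:**
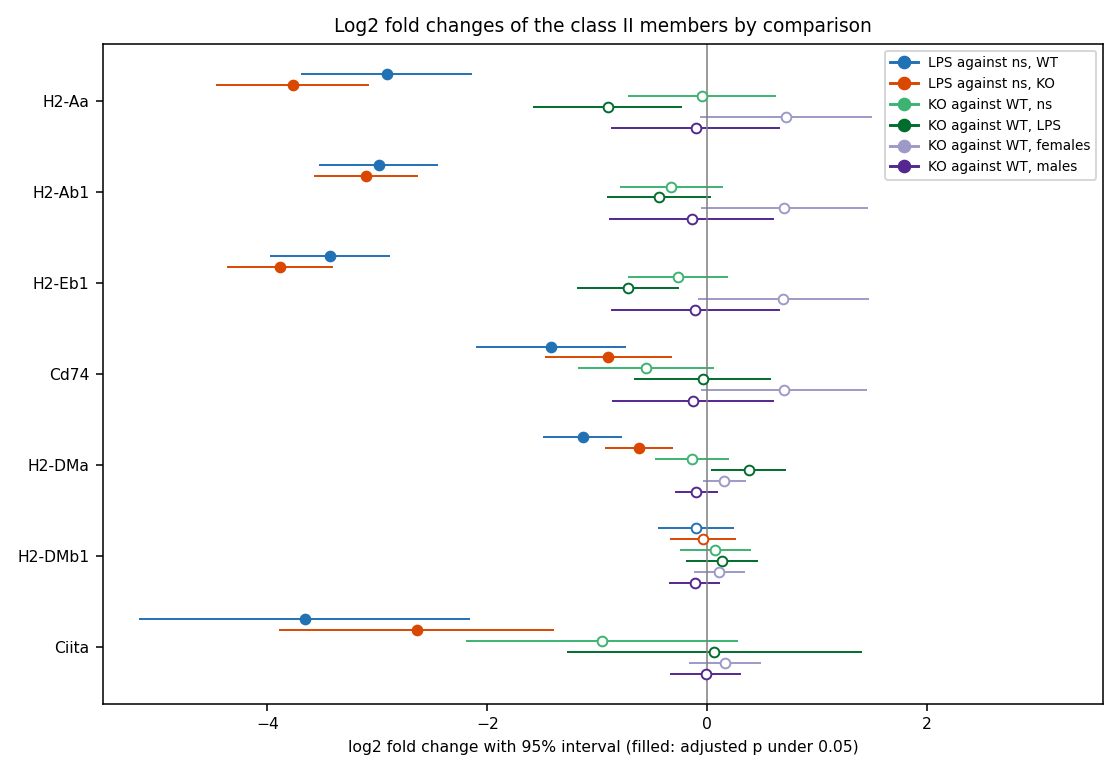
Log2 fold changes of the 7 members (horizontal axis) with 95% intervals from edgeR in 6 comparisons, filled where the adjusted p was under 0.05. The filled points are those of LPS against ns for all members but H2-DMb1, and every genotype comparison is open.

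In the sex experiment the counts covered whole gene spans with introns, so its levels are not set against those of the LPS experiment. Among females, KO animals fell into a wide range for the I-A and I-E genes and Cd74. H2-Aa had 68.1, 183, 79.0, 254 and 251 CPM in female KO 1 to 5, and 77.6, 114, 117 and 98.7 CPM in the 4 female WT animals. Cd74 had 163, 414, 194, 594 and 564 CPM in the same KO females, against 175 to 278 CPM in female WT. The KO females numbered 2, 4 and 5 lay above every female WT animal and the other two lay within or below them.

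H2-Ab1 and H2-Eb1 showed the same split, with 118, 167 and 154 CPM of H2-Ab1 in female KO 2, 4 and 5, against 46.9 and 53.0 CPM in the other two and 50.6 to 77.5 CPM in female WT. H2-Eb1 had 162, 213 and 212 CPM in that trio, 54.1 and 74 CPM in the other two and 68.7 to 104 CPM in female WT. The log2 fold changes of KO against WT in females were 0.71 ± 0.37 (SE) for H2-Aa, 0.70 ± 0.36 for H2-Ab1, 0.69 ± 0.36 for H2-Eb1 and 0.70 ± 0.35 for Cd74, each with an adjusted p of 1. By edgeR 0 members were called, where 0.164% of all genes were, and 0 had an unadjusted p under 0.05. DESeq2 called 0 and gave 4 an unadjusted p under 0.05.

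H2-DMa, H2-DMb1 and Ciita stayed within narrower ranges, at 66.8 to 89.2, 40.7 to 61.2 and 9.71 to 18.1 CPM over all 18 animals. Their log2 fold changes in females were 0.15 (95% interval -0.04 to 0.35), 0.11 (95% interval -0.12 to 0.34) and 0.16 (95% interval -0.17 to 0.49).

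In males H2-Aa had 74.6, 83.2, 104 and 79.2 CPM in WT and 113, 76.7, 47.0, 86.8 and 72.4 CPM in KO, and the groups overlapped for all 7 members. Log2 fold changes ran from -0.14 (H2-Ab1) to -0.02 (Ciita), with 0 of 7 called by edgeR against 0.00946% of all genes, 0 at an unadjusted p under 0.05 and 0 by DESeq2. With the sexes averaged 0 were called, where 0.432% of genes were, and between WT females and WT males 0, where 0.0725% were. These comparisons also had 0 members at an unadjusted p under 0.05 by edgeR and 0 calls by DESeq2. The interaction of sex and genotype was 0.82 ± 0.51 (SE) for H2-Aa and 0.83 ± 0.49 for Cd74 (adjusted p = 0.999 for both). It was called by edgeR for 0 members and for 0% of all genes, with 0 members at an unadjusted p under 0.05 and 0 called by DESeq2.

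**Figure D4:**
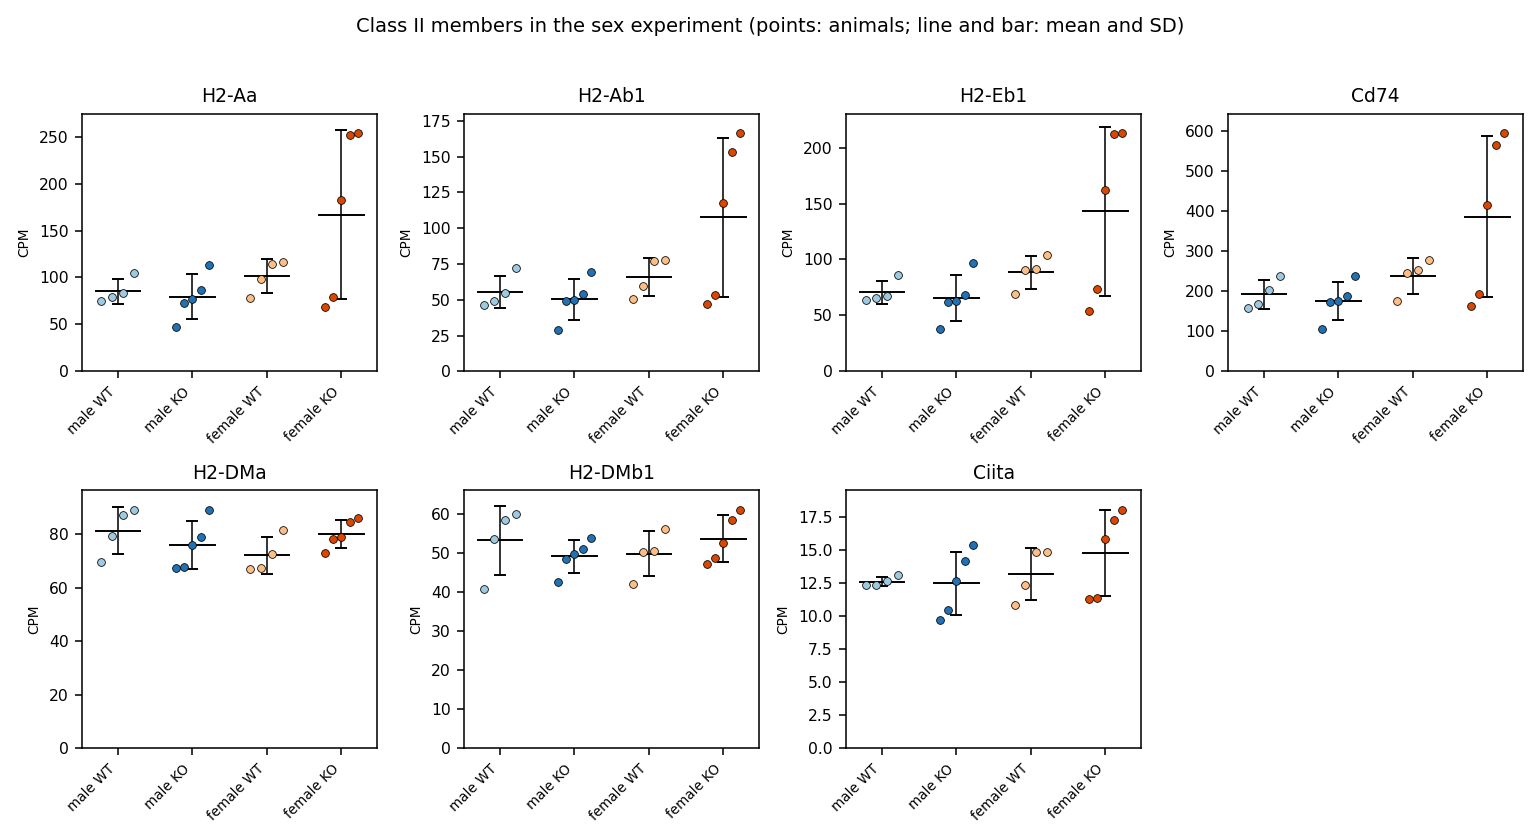
Levels of the 7 members in each animal of the sex experiment in CPM, by sex and genotype, with the mean and SD as line and bar. In 3 of 5 female KO animals H2-Aa, H2-Ab1, H2-Eb1 and Cd74 lie above all other animals, and H2-DMa and H2-DMb1 overlap across the groups.

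Mrc1, the macrophage mannose receptor, had 508 and 583 CPM in female KO 4 and 5, against 115 to 314 CPM in the other 16 animals. Cd209a and Clec10a, lectins of dendritic cells and some macrophages, were also highest there, at 23.1 and 19.0 CPM for Cd209a and 23.5 and 30.5 CPM for Clec10a. Female KO 2, which had high class II levels too, had 131 CPM of Mrc1, 7.80 CPM of Cd209a and 11.7 CPM of Clec10a. These genes were named after their values were seen, and the other markers of their lists are given here only as sums. Whether those other markers were high in the same animals is not shown. In females edgeR called 0 of 10 markers of border-associated macrophages and 0 of 9 dendritic cell markers between KO and WT, beside 0.164% of all genes.

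The summed level of the 10 markers of border-associated macrophages was 1039 to 2262 CPM in female KO and 926 to 1591 CPM in female WT. That of 9 dendritic cell markers was 103 to 150 and 101 to 130 CPM. In males the macrophage sum reached 1455 CPM in KO and 1516 in WT, and the dendritic sum 117 and 142 CPM. No marker of either list was at 0 in all animals of a group. Without female KO 4 and 5, a choice made after the values were seen, the female log2 fold changes were 0.12 for H2-Aa, 0.14 for H2-Ab1, 0.14 for H2-Eb1 and 0.12 for Cd74. These animals had the highest levels of these genes, so leaving them out had to lower the values whatever their marker levels. The part of other cell types in these levels was not tested.

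**Figure D5:**
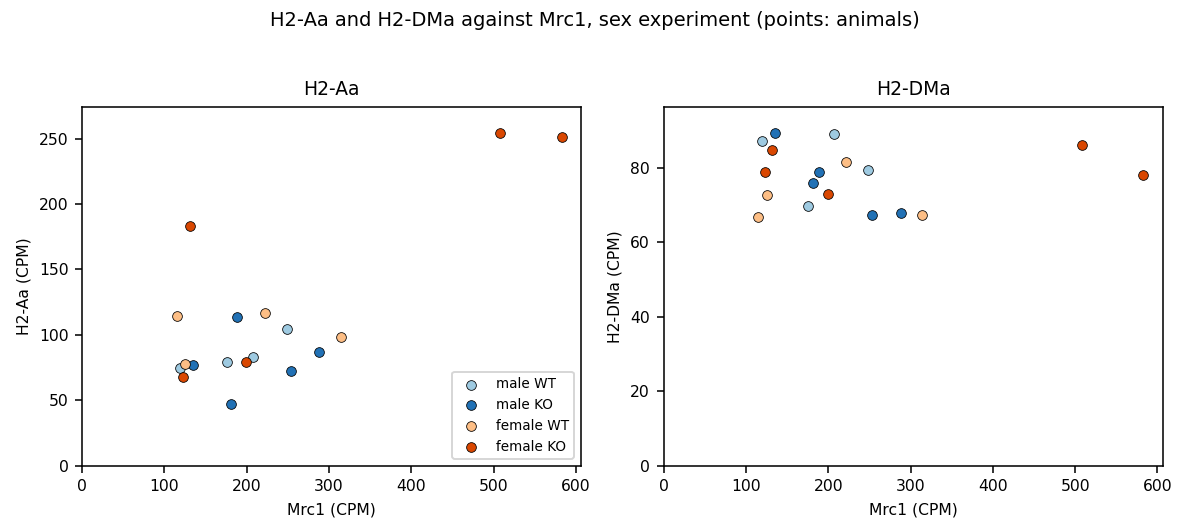
H2-Aa and H2-DMa (CPM, vertical axes) against Mrc1 (CPM, horizontal axis) in each of the 18 animals of the sex experiment. Of the 3 female KO animals with the highest H2-Aa, 2 have the highest Mrc1 and 1 has 131 CPM, while H2-DMa stays between 66.8 and 89.2 CPM.

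In the sex experiment the members fell into groups by how they varied between samples of 1 group. In the 18 animals compared by sex, log2 levels relative to the mean of their group correlated between H2-Aa, H2-Ab1, H2-Eb1 and Cd74 with Pearson's r of 0.981 to 0.991. Ciita correlated with these 4 at 0.778 to 0.823. H2-DMa and H2-DMb1 correlated with each other at 0.852 and with those 4 at only 0.148 to 0.303. These are descriptions over animals that share a sort and a count table.

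In the LPS experiment r was 0.676 between H2-Aa and H2-Ab1, 0.908 between H2-Ab1 and H2-Eb1, -0.228 between H2-Aa and Cd74, and 0.243 between H2-DMa and H2-DMb1 over all 32 samples. Without the 3 samples of the main groups low in long transcripts (29 samples, with WT LPS 6, also low in them, kept) these values were 0.788, 0.939, 0.225 and 0.671. Without library number 2 alone (28 samples) they were 0.685, 0.913, -0.208 and 0.235, and without both (25 samples) 0.911, 0.951, 0.610 and 0.813. Ciita did not show the close correlation seen in the sex experiment. Over all 32 samples its r was -0.601 with H2-Aa, 0.087 with H2-Ab1, -0.140 with H2-Eb1 and 0.797 with Cd74. Over the 25 samples these were 0.278, 0.479, 0.325 and 0.531.

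Genes outside the list were ranked by their correlation with the mean deviation of H2-Aa, H2-Ab1, H2-Eb1 and Cd74. In the sex experiment the 6 highest were Mir5107 (0.987), Vmp1 (0.876), Axl (0.854), C4b (0.842), Myof (0.820) and Khdc1a (0.817), over 18 animals. Mir5107 lies inside Cd74 on the same strand, so its 88 bases share reads with that gene. In the LPS experiment the 5 highest were Opn3 (0.661), Dusp8 (0.656), Cd209a (0.618), Gch1 (0.609) and Rap2b (0.607), over 32 samples. Opn3 and Dusp8 each averaged only 1.57 CPM. The samples low in long transcripts and those of library number 2 were kept, and over all 32 H2-Aa and Cd74 correlated at -0.228. None of the genes named here was among both sets.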

How the data were processed

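The authors deposited unnormalized counts of reads by gene, in 1 table per experiment. Per the submitters' processing notes, STAR 2.6.1, featureCounts of Subread, FastQC, DESeq2 and the build GRCm39 were used. The read length, the strand setting and the annotation of the LPS table are not given in the sources used here. Per the file headers, gene lengths of the sex table are whole spans with introns, and overlapping genes can share reads.

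Columns were matched to samples by name, with 18 animals in the sex experiment (6 repeat libraries without a column of their own were not analysed here) and 33 libraries in the LPS experiment. WT LPS 8 and WT LPS 9 had a chi-square per degree of freedom of 1.86 (at least 8.32 for other pairs of a group) and were summed to 1 sample.

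Each table was fitted whole with edgeR 4.0.16 in R 4.3.3: filterByExpr, TMM scaling, the quasi-likelihood F test with robust dispersions, a mean per group and, in the LPS experiment, the library set as covariate. P-values were adjusted by Benjamini-Hochberg over all genes tested and called under 0.05. CPM are counts per M counts of the TMM-scaled total. The SE is the absolute log2 fold change over the square root of F. Transcript lengths came from GENCODE's basic mouse annotation of GRCm38.

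All 7 members are named, and from each other pathway list at most the 3 called genes with the largest log2 fold change. Genes of the marker lists, Rfx5 and Ifng were named as examples after their values were seen. Some genes of the lists are not reported here. The members, lists and tests were chosen with earlier results of these data known. Alternatives were DESeq2 1.42.0, no filter, a mean of at least 5 CPM, RLE scaling, only the groups compared, each library set, the labelled grouping, the pair apart, a replicate block and each sample left out. The scripts were tested on simulated data.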

Additional observations from a re-analysis of the deposited data

Results flagged for a closer look

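Of 56 sets of values of a member in a group, 6 held a sample that stood far from the others of its group. Chance alone gives about 1 in 20 for independent sets. These sets share samples, and members vary together, so the 6 cannot be read as an excess over chance. Cd74 was at 49.5 CPM in KO LPS 5, where the other samples of the group had 159 to 274. Cd74 was at 356 CPM in WT ns 2, with the others at 501 to 593. Ciita was at 0.0427 CPM in KO LPS 5, which is 1 count, with the others at 0.645 to 1.72. In KO ns 6, H2-DMa was at 76.6 CPM (others 104 to 126) and H2-DMb1 at 121 CPM (others 57.4 to 80.7). H2-Eb1 was at 86.0 CPM in male WT 4, with the others at 64.1 to 67.2. The samples KO ns 6 and KO LPS 5 are among the 3 of the main groups low in long transcripts.

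The WT samples of library number 2 labelled LPS are WT LPS 1 and WT LPS 6. Over the 7 members in each of them, 9 values exceeded every WT ns sample of the main group. The share of all genes that did so was not counted. WT LPS 1 had 790 CPM of Cd74, 17.5 of Ciita, 371 of H2-Aa, 289 of H2-Ab1 and 292 of H2-Eb1. WT LPS 6 had 2424 CPM of H2-Aa, 599 of H2-Ab1, 830 of H2-Eb1 and 147 of H2-DMb1. This sample was low in long transcripts too (index -1.45). The highest WT ns values were 593 CPM for Cd74, 16.9 for Ciita, 322 for H2-Aa, 224 for H2-Ab1, 243 for H2-Eb1 and 77.0 for H2-DMb1.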

How the results depend on the processing

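Members called for LPS numbered 6 in KO and 6 in WT under DESeq2, no filter, a mean of at least 5 CPM, RLE scaling, no set covariate, the pair of similar libraries apart, no library of number 2, and without the 3 samples low in long transcripts. With only the groups compared they were 5 and 6. With the WT libraries of number 2 in their labelled groups, WT had 0 called members and H2-Aa turned to 0.64, and KO against WT under LPS had 2. Library set 2 alone gave 3 called members in KO and 3 in WT. Library set 1 alone, with as many samples of the main groups, gave 6 and 6. The cause was not tested. Leaving out each sample in turn gave 5 to 6 called members in KO, 6 in each WT fit and 0 in every fit of the other comparisons. With a replicate block the counts were 6 and 6, and 0 elsewhere, so no call changed, and the female value of H2-Aa was 0.51. Same-numbered samples deviated together only weakly (mean r 0.073 over 24 pairs and 0.079 over 35), so the numbers were not taken to pair them.

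The background counts over all genes moved more: KO against WT in females called 52 genes, 213 under DESeq2 and 3 with only the groups compared, and LPS against ns called 4481 in KO and 4811 in WT, against 756 and 589 in library set 2 alone. Ciita rests on 0 to 2 counts in the 3 samples low in long transcripts, although their totals (18.0 to 25.7 M counts) lay within the range of the others. The group sizes leave wide intervals for genotype, so uncalled values do not show that genotypes are alike.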
